A study of Mus musculus with 12 samples.

Results

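The 36 genes described here mark the active phases of the cell cycle. They were chosen by name from the 24391 genes of the count tables: 16 genes of DNA replication, expressed towards S phase, and 20 genes of G2 and mitosis (G2/M). Their RNA was followed in the anterior hard palate of C57BL/6 mouse embryos at embryonic day 14.5 (E14.5) and 16.5 (E16.5). The controls are labelled wild type. The mutants are Shox2-Cre;R26R-Fgf8 embryos: Shox2, a gene of the anterior palate mesenchyme, drives the Cre that switches on an Fgf8 allele, which encodes a secreted growth factor. Each of the 4 groups held 3 samples. The labels do not say whether the controls carry 1 of the alleles, nor how many embryos went into a sample, so p-values measure only the spread between these samples, which may be technical.

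A cell that will divide first loads MCM helicases onto its replication origins, with the help of Cdc6 and Cdt1, and then copies its DNA using nucleotides made by ribonucleotide reductase and thymidylate synthase. E2F factors switch on many of these genes late in G1. Later the cell builds cyclin B with Cdk1, the spindle motors, the kinetochores and the checkpoint kinases. Genes of this second wave are repressed outside it by the DREAM complex and raised by B-Myb and Foxm1, through a promoter element named the CHR. Promoters of this wave often also hold an element named the CCAAT box. In the palatal shelves, the mesenchyme grows by cell division before and while it forms bone.

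The promoters of the 2 waves carried different sequence elements. Of the windows listed by RefSeq on the GRCm38.p6 build, from 250 bases before to 50 after each gene's start, 13 of 16 S-phase genes and 15 of 20 G2/M genes had an entry. The E2F core was searched on either strand as the word TTGGCGC and as its variant forms TTCCCGC (the second form), TTCGCGC (the third form) and, as the last form, TTGCCGC. For each gene symbol only the first listed window of that length was searched, which left 27025 windows, called all windows here. The E2F core stood in 8 of 13 S-phase windows, in 3 of 15 G2/M windows and in 9.69% of all windows. A CHR, searched on either strand as TTTGAA and in its palindromic form TTCGAA, stood in 2 of 13 S-phase windows, in 12 of 15 G2/M windows and in 19.4% of all windows. The CCAAT box (CCAAT, on either strand) stood in 8 of 13, 14 of 15 and 37.9%. The 2 elements CHR and CCAAT stood together in 12 of 15 G2/M windows, in 2 of 13 S-phase windows and in 7.70% of all. These are matches of letters in a window, not measured binding.

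The promoters below are those of the 2 genes of each wave with the lowest adjusted p in mutants at E16.5 among those with a RefSeq entry (Aurkb, Foxm1 and Ccna2, whose adjusted p was lower than that of Birc5, have none), and of Mcm6 and Top2a, which were added after the counts were seen because they held the most E2F cores and CHRs. Each runs 5′ to 3′ on the gene's strand for 250 bases before and 30 after the start, with every match of the 3 elements in capitals. On GRCm38.p6 they lie at chr12:24708004-24708283 (plus strand, Rrm2), chr1:20820283-20820562 (minus, Mcm3), chr1:128359676-128359955 (minus, Mcm6), chr11:117848987-117849266 (plus, Birc5), chr2:118597961-118598240 (plus, Bub1b) and chr11:99024160-99024439 (minus, Top2a).
Rrm2: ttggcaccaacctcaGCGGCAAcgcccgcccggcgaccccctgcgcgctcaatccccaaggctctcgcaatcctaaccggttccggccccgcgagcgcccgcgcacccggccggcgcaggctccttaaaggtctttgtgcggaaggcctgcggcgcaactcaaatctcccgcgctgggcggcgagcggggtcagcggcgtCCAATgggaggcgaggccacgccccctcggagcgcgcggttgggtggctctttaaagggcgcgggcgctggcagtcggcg
Mcm3: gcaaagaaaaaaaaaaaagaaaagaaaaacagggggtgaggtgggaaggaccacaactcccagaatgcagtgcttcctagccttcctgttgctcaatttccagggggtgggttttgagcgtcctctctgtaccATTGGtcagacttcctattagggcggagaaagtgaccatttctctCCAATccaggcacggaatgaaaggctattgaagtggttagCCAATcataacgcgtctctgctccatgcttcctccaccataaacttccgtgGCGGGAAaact
Mcm6: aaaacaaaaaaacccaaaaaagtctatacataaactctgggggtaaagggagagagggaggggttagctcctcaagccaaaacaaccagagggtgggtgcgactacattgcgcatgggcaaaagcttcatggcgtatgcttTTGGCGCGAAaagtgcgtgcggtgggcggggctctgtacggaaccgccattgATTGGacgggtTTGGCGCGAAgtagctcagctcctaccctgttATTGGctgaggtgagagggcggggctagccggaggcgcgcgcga
Birc5: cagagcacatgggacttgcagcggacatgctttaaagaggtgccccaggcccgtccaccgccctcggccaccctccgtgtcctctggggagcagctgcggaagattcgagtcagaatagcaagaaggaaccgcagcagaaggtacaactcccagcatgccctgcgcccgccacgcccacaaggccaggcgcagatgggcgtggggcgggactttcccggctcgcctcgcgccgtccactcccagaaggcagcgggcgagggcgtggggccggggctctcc
Bub1b: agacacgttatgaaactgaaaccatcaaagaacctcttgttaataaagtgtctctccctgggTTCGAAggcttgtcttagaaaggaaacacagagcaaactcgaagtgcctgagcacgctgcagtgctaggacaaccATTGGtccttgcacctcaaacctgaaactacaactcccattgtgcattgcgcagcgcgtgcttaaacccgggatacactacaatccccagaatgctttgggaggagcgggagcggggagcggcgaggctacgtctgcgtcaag
Top2a: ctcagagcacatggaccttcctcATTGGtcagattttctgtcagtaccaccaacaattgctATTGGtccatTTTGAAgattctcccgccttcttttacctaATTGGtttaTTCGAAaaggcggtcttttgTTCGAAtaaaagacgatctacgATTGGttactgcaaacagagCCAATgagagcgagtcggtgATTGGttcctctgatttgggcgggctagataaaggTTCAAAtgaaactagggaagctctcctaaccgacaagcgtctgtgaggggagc
In the Mcm6 stretch the 4 E2F cores form 2 overlapping pairs, with 1 CCAAT box between the pairs and 1 after them. Bases after the start listed for Mcm6 were found in no GENCODE vM21 transcript of that gene, so its start is less certain. The same held for Mcm5, Aurka and Kif11, whose windows are in the counts above. The Top2a stretch holds 4 CHRs and 6 CCAAT boxes. The Bub1b stretch holds 1 CHR and 1 CCAAT box. In the Birc5 stretch no element searched for was found.

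The libraries held 76417891 to 125996587 counted reads. The 36 genes took 0.502 to 0.566% of these reads in the E14.5 libraries and 0.319 to 0.395% in the E16.5 libraries, and all 36 passed the filter on low counts in each comparison. Fgf8 stood at 0.249 to 0.462 CPM (counts scaled by library size and TMM factor) in the 6 control libraries and at 10.5 to 17.8 CPM in the 6 mutant libraries. Summed CPM of 10 palate mesenchyme markers was 892 to 1153 in controls. In the E16.5 mutant libraries 1 and 3, but not in library 2, retina markers stood apart: their sum was 175, 17.3 and 101 CPM in libraries 1, 2 and 3, against 37.2 to 40.6 CPM in controls of that age. The sum of 10 neuron markers was 324, 63.9 and 198 CPM in the same libraries, against 53.1 to 56.8 CPM.

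At E14.5, 4 of the 16 S-phase genes and 2 of the 20 G2/M genes rose in mutants, and none of the 36 fell, by edgeR's quasi-likelihood test with Benjamini-Hochberg adjustment over all 16650 genes tested (threshold 0.05). Over all genes tested 2.95% rose and 4.57% fell. The median log2 fold change was 0.15 for the S-phase genes, 0.13 for the G2/M genes and 0.01 over all genes. In 11 of 16 S-phase and 12 of 20 G2/M genes every mutant library lay above every control library, which held for 14.6% of all genes. In bulk tissue, a larger share of cycling cells and more of these RNAs per cell cannot be told apart.

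The nucleotide genes were among the clearest at E14.5. Rrm2, the small subunit of ribonucleotide reductase that is made for S phase, stood at 119, 125 and 125 CPM in controls, against 154, 153 and 161 CPM in mutants. The groups did not overlap, and the log2 fold change was 0.34 ± 0.05 (SE, adjusted p = 0.0034 by edgeR). Rrm1, the large subunit, stood at 239.5, 244.5 and 239.3 CPM against 274, 271 and 278 CPM, again without overlap. Its change was 0.19 ± 0.05 (edgeR adjusted p = 0.049), at the edge of the threshold. Tyms, which makes thymidylate, went from 82.0 ± 7.71 to 95.7 ± 6.19 CPM (SD, n = 3 each), which did not pass the test (edgeR adjusted p = 0.11).

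Ccne2, an E-type cyclin that activates Cdk2 at S-phase entry, had the largest change of the 36 genes at this age. Its CPM was 11.0, 11.5 and 12.2 in controls and 16.9, 15.1 and 18.02 in mutants, a log2 fold change of 0.53 ± 0.09 (edgeR adjusted p = 0.0068). Ints8, which shares 474 exon bases with Ccne2 on the opposite strand, changed by 0.14 ± 0.06 and did not pass (edgeR adjusted p = 0.17). Whether reads were counted by strand is not given in the sources used here, so reads from exons shared with an opposite gene, here and below, cannot be assigned to 1 of them. Pcna, the sliding clamp of the replication fork, stood at 126, 139 and 139 CPM in controls, against 174, 157 and 171 CPM in mutants, 0.31 ± 0.06 on the log2 scale (edgeR adjusted p = 0.017).

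The rest of the S-phase set gave no call at E14.5. The 6 MCM helicase subunits had log2 changes of -0.05 (Mcm3) to 0.15 (Mcm5), with a median of 0.09. E2f1, the E2F activator, changed least, with 57.4, 56.3 and 56.5 CPM in controls and 57.8, 56.5 and 54.1 CPM in mutants. Gins2, a subunit of the GINS complex of the replicative helicase, was just outside the threshold at 0.32 ± 0.09 (edgeR adjusted p = 0.051), and it shares 2758 exon bases on the opposite strand with Gse1, which fell by 0.40 on the log2 scale (edgeR adjusted p = 0.0065).

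Of the G2/M genes, a checkpoint kinase and a spindle motor rose at E14.5. Bub1, a kinase of the spindle checkpoint, stood at 72.9, 73.3 and 73.2 CPM in controls, against 91.3, 83.2 and 93.4 CPM in mutants, 0.29 ± 0.06 (edgeR adjusted p = 0.015). Kif20a, a kinesin of cytokinesis, stood at 115, 114 and 113 CPM against 141, 133 and 130 CPM, 0.24 ± 0.05 (edgeR adjusted p = 0.026). Control libraries of these 2 genes were close together, and all mutant libraries lay above them. Kif20a shares 977 exon bases with Cdc23 on the opposite strand, which changed in the same direction without passing (0.16 ± 0.06, edgeR adjusted p = 0.13).

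Cyclins A2, B1 and B2 and their partner Cdk1 had log2 changes of 0.12 to 0.25 at E14.5, with no overlap between groups and no call; their lowest adjusted p was 0.090 (edgeR, Ccna2). Cenpe, a kinetochore motor, changed least, from 114 ± 7.20 to 114 ± 13.2 CPM. Mki67, which encodes the Ki-67 antigen, had the lowest change of the set: 467, 477 and 514 CPM in controls and 425, 395 and 485 CPM in mutants, -0.16 ± 0.08 (edgeR adjusted p = 0.26). Its groups overlapped.

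**Figure D1:**
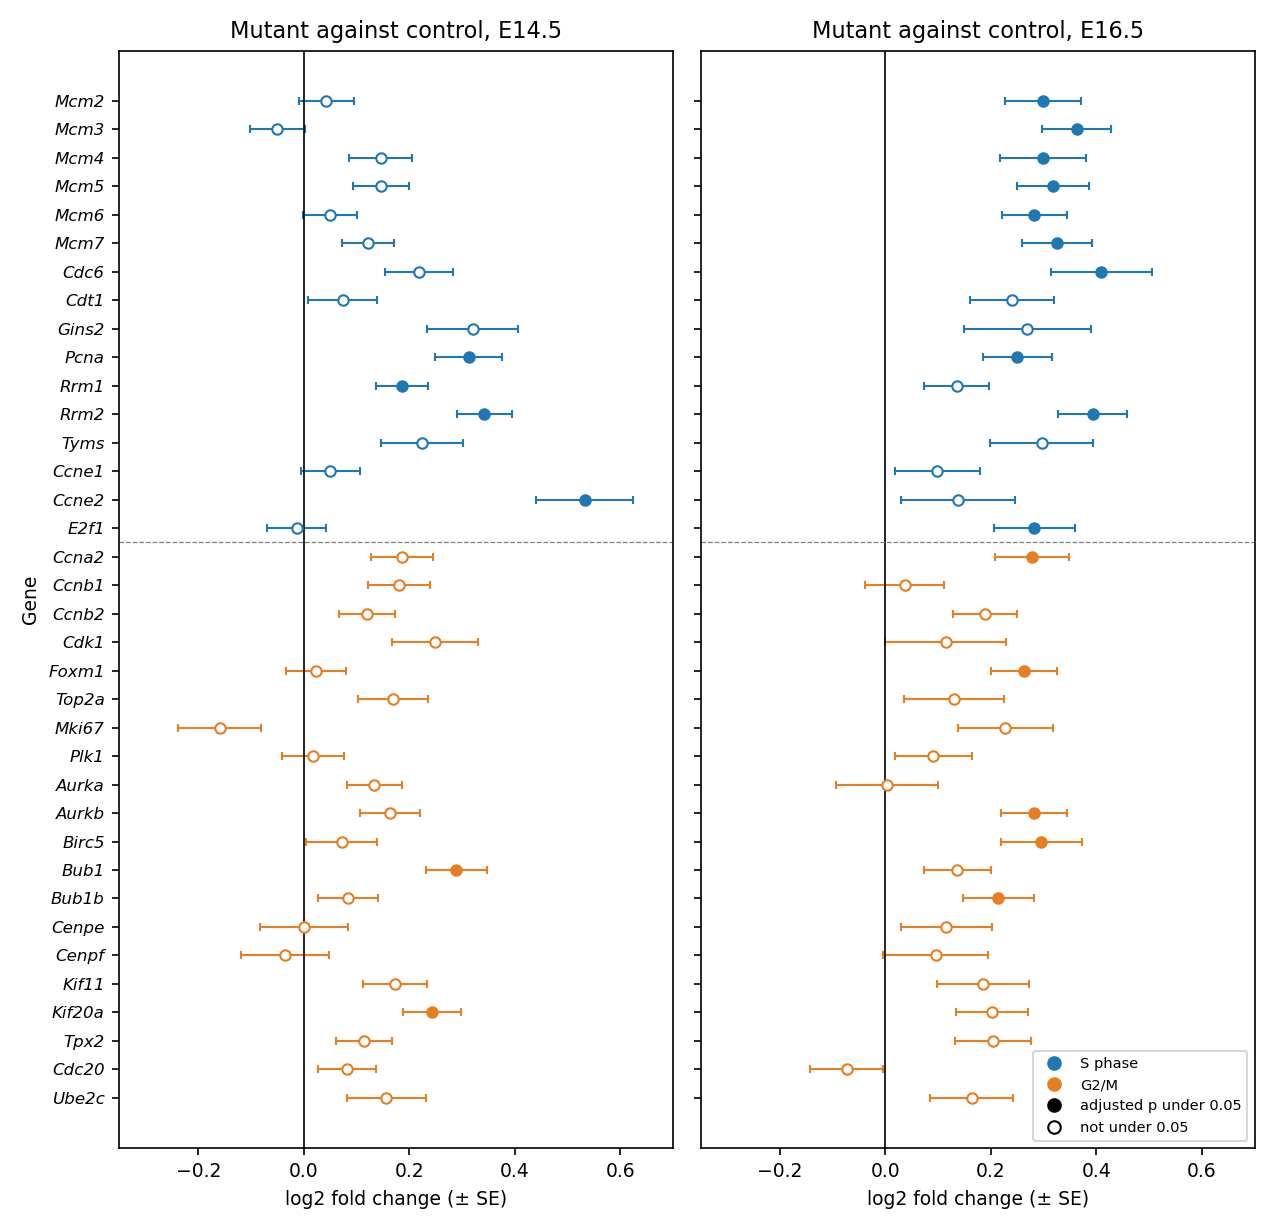
Log2 fold change (mutant against control) of each of the 36 genes at E14.5 (left) and E16.5 (right), with bars of 1 SE; blue marks S-phase genes, orange G2/M genes, and filled points adjusted p under 0.05 by edgeR. At E14.5 the filled points are Pcna, Rrm1, Rrm2, Ccne2, Bub1 and Kif20a; at E16.5 all 6 MCM genes are filled, and only Cdc20 lies below 0.

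At E16.5, 10 of 16 S-phase genes and 5 of 20 G2/M genes rose in mutants and none fell (edgeR, 17169 genes tested). Over all genes tested 12.2% rose and 15.7% fell. The median log2 fold change was 0.29 for the S-phase genes, 0.17 for the G2/M genes and 0.01 over all genes. All 16 S-phase estimates and 19 of 20 G2/M estimates were above 0, and every mutant library exceeded every control library in 13 of 16 and 8 of 20, against 18.3% of all genes. With the replicate number as a block, 14 S-phase genes rose, with Cdt1, Gins2, Rrm1 and Tyms added, and 11 G2/M genes, with Ccnb2, Mki67, Kif11, Kif20a, Tpx2 and Ube2c added, and over all 17169 genes 39.3% changed in either direction, 3211 of them upwards.

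The MCM helicase changed as a whole at this age: 6 of 6 subunits rose, with log2 fold changes of 0.28 to 0.36. Mcm3 stood at 104, 97.9 and 105 CPM in controls, against 122, 132 and 134 CPM in mutants, 0.36 ± 0.07 (edgeR adjusted p = 0.0043). Mcm7 stood at 112, 99.7 and 107 CPM against 129, 133 and 130 CPM, 0.33 ± 0.07 (edgeR adjusted p = 0.0076). The lowest mutant library of each subunit lay above its highest control library. Mcm7 shares 247 exon bases with Ap4m1 on the opposite strand, whose own change was -0.11 ± 0.09 and did not pass (edgeR adjusted p = 0.42).

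Cdc6, the loader of the MCM ring, had the largest change of the 36 genes at E16.5. Its CPM was 17.2, 15.6 and 14.9 in controls and 22.3, 20.2 and 19.8 in mutants, 0.41 ± 0.10 (edgeR adjusted p = 0.014). Its partner Cdt1 stood at 35.4, 32.4 and 37.3 CPM against 39.2, 39.1 and 43.7 CPM and missed the threshold (edgeR adjusted p = 0.055, and 0.010 with the replicate block). Rrm2 stood at 85.5, 78.8 and 86.7 CPM in controls, against 104, 108 and 112 CPM in mutants, 0.39 ± 0.07 (edgeR adjusted p = 0.0028), the lowest adjusted p of the 36 genes.

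Rrm2 and Pcna were the 2 genes that rose at both ages. Pcna stood at 124, 114 and 114 CPM in E16.5 controls and at 134, 140 and 137 CPM in mutants, 0.25 ± 0.07 (edgeR adjusted p = 0.023). E2f1 rose at E16.5 from 40.3, 41.0 and 36.6 CPM to 49.2, 46.1 and 45.7 CPM, 0.28 ± 0.08 (edgeR adjusted p = 0.025). The E-type cyclins did not pass: Ccne1, which changed least of the S-phase genes, stood at 33.6, 32.6 and 31.9 CPM against 32.9, 38.2 and 32.3 CPM, and Ccne2 changed by 0.14 ± 0.11.

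The G2/M genes that rose at E16.5 came from 4 of the 6 roles in the set. Birc5 encodes survivin, a partner of Aurora B in the chromosomal passenger complex, and stood at 62.4, 58.2 and 55.9 CPM in controls, against 74.1, 72.9 and 66.1 CPM in mutants, 0.30 ± 0.08 (edgeR adjusted p = 0.022). Aurkb, Aurora B itself, stood at 51.4, 48.7 and 49.0 CPM against 60.3, 60.8 and 57.1 CPM, 0.28 ± 0.06 (edgeR adjusted p = 0.012). The other Aurora kinase, Aurka of the spindle poles, changed least of the G2/M genes: 46.2, 42.9 and 44.4 CPM in controls and 43.8, 49.7 and 38.1 CPM in mutants.

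Ccna2, the cyclin of S phase and G2, stood at 108, 102 and 115 CPM against 129, 125 and 134 CPM, 0.28 ± 0.07 (edgeR adjusted p = 0.019); it shares 428 exon bases with Exosc9 on the opposite strand. Foxm1, the transcription factor of the G2/M wave, stood at 60.0, 58.2 and 60.5 CPM against 72.4, 68.2 and 70.1 CPM, 0.26 ± 0.06 (edgeR adjusted p = 0.015). Bub1b, the checkpoint protein BubR1, was the last to pass, with 0.21 ± 0.07 (edgeR adjusted p = 0.044). In these genes, too, the groups did not overlap.

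Genes of the spindle and of the anaphase-promoting complex gave no call at E16.5 without the replicate block. Cdc20, which activates that complex, had the only estimate below 0 at E16.5: 94.9, 89.9 and 93.6 CPM in controls and 79.3, 92.9 and 88.6 CPM in mutants, -0.07 ± 0.07 (edgeR adjusted p = 0.48). Ccnb1 changed by 0.04 ± 0.08, whereas Ccnb2 changed by 0.19 ± 0.06 with an edgeR adjusted p of 0.051, just outside the threshold. The spindle genes Kif11, Kif20a and Tpx2 had changes of 0.19 to 0.20 and none passed. With the block these 3 genes, Ccnb2 and Ube2c, the ubiquitin-conjugating enzyme of the anaphase-promoting complex, did pass: the edgeR adjusted p was 0.023 for Kif11, 0.021 for Kif20a, 0.012 for Tpx2, 0.012 for Ccnb2 and 0.038 for Ube2c.

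**Figure D2:**
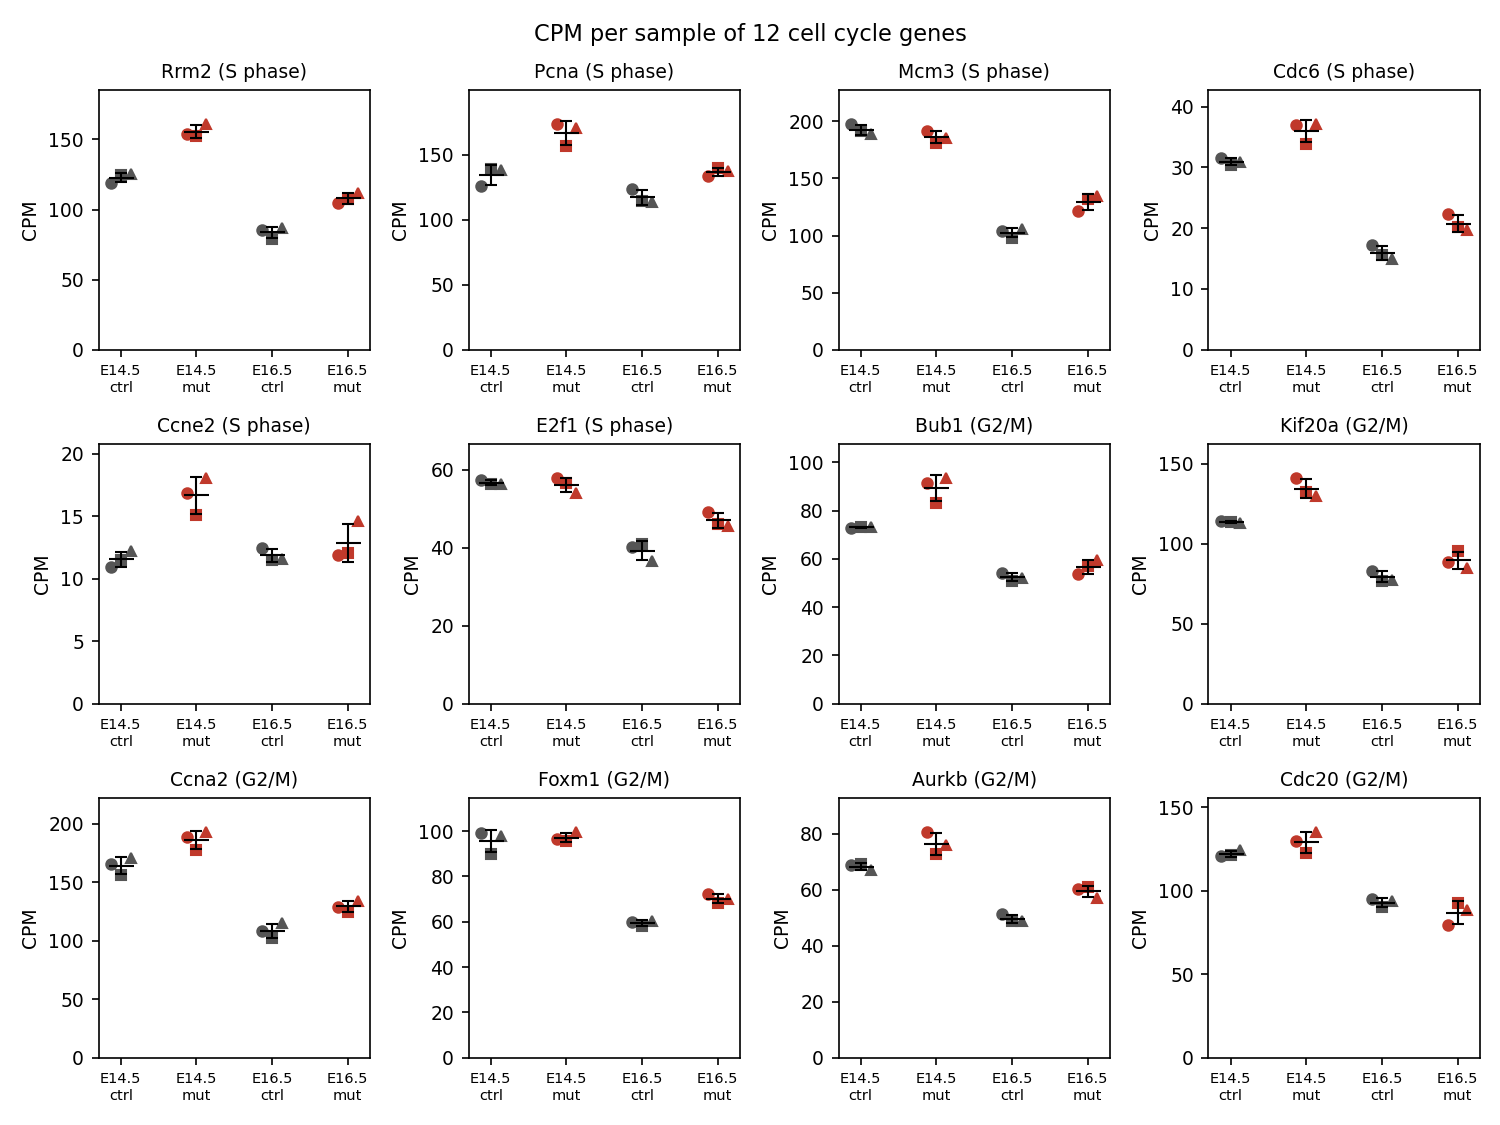
CPM of 12 of the genes in each library, by group (grey controls, red mutants; circles, squares and triangles are replicates 1, 2 and 3), with the mean and SD of 3 libraries and each axis starting at 0. Rrm2 and Pcna lie higher in mutants at both ages, Mcm3 and E2f1 at E16.5 alone show separated groups with mutants higher, and the Cdc20 groups overlap at both ages.

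The calls at E16.5 rest on few libraries. Without control library 2, which had the lowest S-phase and G2/M levels of its group, 2 S-phase and 0 G2/M genes passed, and without control library 1, 6 and 2 passed. Without mutant library 1 or 3, 2 and 3 G2/M genes passed. Without mutant library 2, 10 S-phase and 4 G2/M genes passed. Calls over all genes, in either direction, moved in the same fits, from 27.9% with every library. They were 16% without control library 2 and 17.7% without control library 1. Without mutant libraries 1, 3 or 2, left out singly, they were 20.3, 20.5 and 31.4%. Without mutant libraries 1 and 3, the pair with high retina markers, 4 S-phase genes (Mcm3, Mcm5, Rrm2 and Tyms) and 0 G2/M genes passed, with the lone mutant library assumed to vary like the controls; the medians were then 0.30 and 0.16. In mutant library 2, whose retina sum was below all controls, 15 of 16 S-phase and 13 of 20 G2/M genes lay above every control, against 33.6% of all genes tested.

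At E14.5, 0 G2/M genes passed without control library 1, control library 3 or mutant library 1, 1 without control library 2 or mutant library 2, and 5 without mutant library 3; the S-phase count was 2 without control library 1 or mutant library 1. Calls over all genes, 7.52% with every library, moved as well. They were 3.96, 3.74 and 3.12% without control library 1, control library 3 or mutant library 1. Without control library 2, mutant library 2 or mutant library 3 they were 8.1, 3.99 and 8.36%. The authors' deposited table listed 6 S-phase and 3 G2/M genes at adjusted p under 0.05 at E14.5, and 12 and 8 at E16.5, all of them higher in mutants.

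To set the 2 phases side by side, the mean log2 CPM (prior count 2) over the 16 S-phase genes and over the 20 G2/M genes was taken in each library. These means describe the libraries and carry no test. The S-phase level was 6.57, 6.58 and 6.56 in E14.5 controls and 6.76, 6.71 and 6.74 in mutants. The G2/M level was 6.99, 6.96 and 6.97 against 7.11, 7.04 and 7.11. At E16.5 the S-phase level was 6.05, 5.96 and 5.99 in controls and 6.22, 6.28 and 6.25 in mutants, and the G2/M level was 6.46, 6.38 and 6.46 against 6.55, 6.59 and 6.57. In both phases and at both ages every mutant library lay above every control library.

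As a mean over genes, the S-phase level differed more between genotypes than the G2/M level. These means include at E14.5 the highest and lowest single changes, those of Ccne2 (0.53) and Mki67 (-0.16), and were not repeated without them. At E14.5 mutants exceeded controls by 0.17 in S phase and by 0.11 in G2/M, and at E16.5 by 0.25 and 0.13. The S-phase level minus the G2/M level of the same library removes any shift the phases share; only its change between groups is read here, since genes differ in length. It was -0.42, -0.38 and -0.42 in E14.5 controls, -0.36, -0.33 and -0.36 in E14.5 mutants, -0.42, -0.42 and -0.47 in E16.5 controls and -0.33, -0.30 and -0.32 in E16.5 mutants. The mutant libraries were closer to 0 than every control library of their age, by a mean of 0.06 at E14.5 and 0.12 at E16.5. Leaving out each library in turn gave 0.05 to 0.07 and 0.10 to 0.13. These ranges do not show how far the difference rests on single genes such as Ccne2 or Mki67. With the median level over the genes of a library in place of the mean, the difference was 0.18 and 0.22. That median rests on the genes of middle level, in S phase at E14.5 Rrm2 and Pcna, which both rose. The median change per gene was 0.15 in S phase and 0.13 in G2/M at E14.5, and 0.29 and 0.17 at E16.5.

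**Figure D3:**
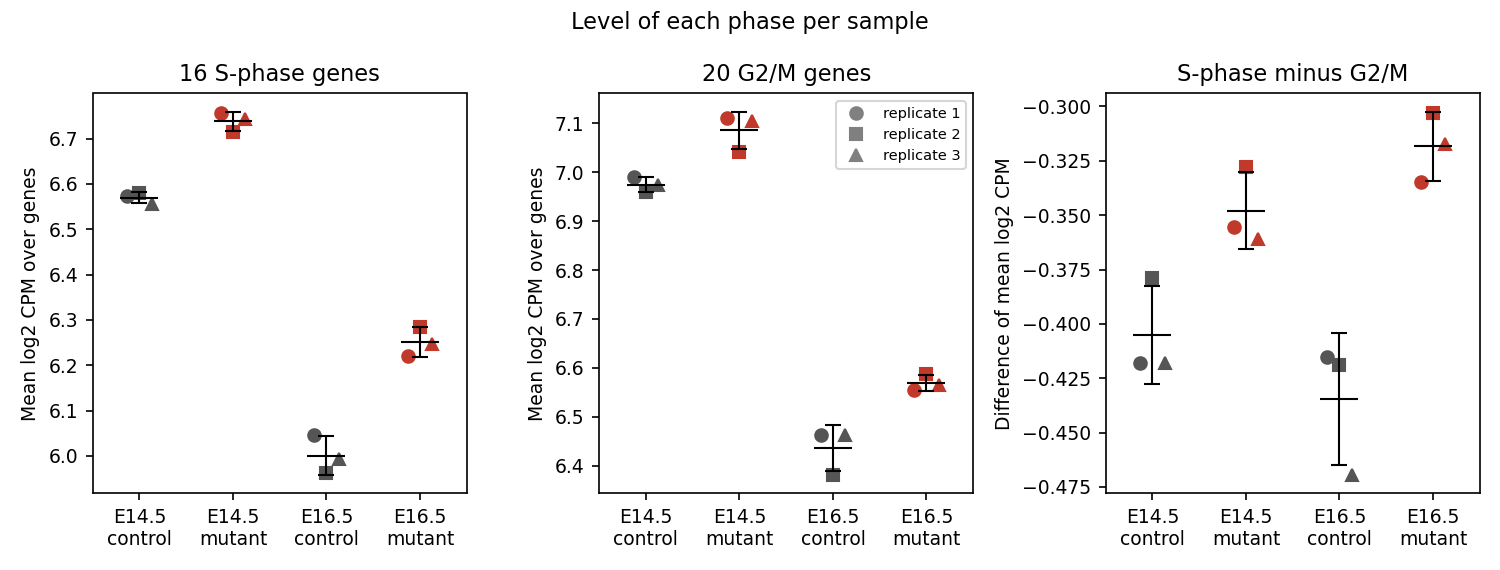
Mean log2 CPM over the 16 S-phase genes (left) and the 20 G2/M genes (middle), and their difference (right), in each library, with the mean and SD of the 3 libraries of each group (grey controls, red mutants). The axes do not start at 0; in all panels the mutant libraries of an age lie above its control libraries.

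Between the ages both phases fell. In controls 14 of 16 S-phase genes and 20 of 20 G2/M genes were lower at E16.5 than at E14.5 (edgeR, all 12 samples in the fit), against 32.1% of all 17550 genes tested. In mutants 15 of 16 and 20 of 20 were lower, against 24.4% of all genes. The median log2 change was -0.62 in S phase and -0.52 in G2/M in controls, and -0.52 and -0.51 in mutants, with -0.003 and 0.003 over all genes.

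In controls Cdc6, Mcm3 and Mcm2 fell furthest. Cdc6 went from 31.6, 30.4 and 30.8 CPM to 17.2, 15.6 and 14.9 CPM, -0.96 ± 0.07 (edgeR adjusted p = 1.21e-07). Mcm3 went from 197, 191 and 189 CPM to the values of 97.9 to 105 CPM given above, -0.91 ± 0.06 (edgeR adjusted p = 1.32e-08). Mcm2 went from 188, 183 and 193 CPM to 110, 101 and 112 CPM, -0.80 ± 0.06 (edgeR adjusted p = 1.13e-07). The 6 MCM genes had a median of -0.79, and the licensing factor Cdt1 changed by -0.57. Ccne2 was the exception in controls, at 0.04 ± 0.10, and Gins2 did not pass in either genotype.

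Of the G2/M genes in controls, Bub1b went from 137, 133 and 133 CPM to 82.1, 74.4 and 78.1 CPM, -0.78 ± 0.06. Plk1, the polo-like kinase of mitotic entry, went from 89.5, 82.5 and 85.3 CPM to 52.8, 47.3 and 52.0 CPM, -0.76 ± 0.07. Tpx2, a spindle assembly factor, went from 183, 178 and 181 CPM to 115, 103 and 118 CPM, -0.69 ± 0.06. The edgeR adjusted p was 1.03e-07, 3.73e-07 and 2.91e-07 for these 3 genes. Cdk1 changed least, from 160, 163 and 141 CPM to 137, 135 and 113 CPM, -0.27 ± 0.11 (edgeR adjusted p = 0.040).

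In mutants Cdc6 again fell furthest, from 37.0, 33.9 and 37.1 CPM to 22.3, 20.2 and 19.8 CPM, -0.79 ± 0.07. Ccne1 went from 59.4, 56.5 and 55.8 CPM to 32.9, 38.2 and 32.3 CPM, -0.73 ± 0.07, and Mcm7 from 199, 201 and 198 CPM to 129, 133 and 130 CPM, -0.61 ± 0.05. Of the G2/M genes, Plk1 went from 86.8 ± 4.22 to 53.1 ± 3.39 CPM (SD, n = 3 each), -0.71 ± 0.07. Bub1b (-0.67 ± 0.06) and Bub1 (-0.66 ± 0.06) followed. These falls passed edgeR's test in every case named. The smallest changes were those of Gins2 among the S-phase genes, at -0.24 ± 0.11 and not past the test, and among the G2/M genes of Cenpf, a kinetochore protein, which went from 136, 127 and 161 CPM to 113, 108 and 127 CPM, with overlapping groups and -0.28 ± 0.10 (edgeR adjusted p = 0.034).

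Whether the genotype effect itself differed between the ages was tested gene by gene as an interaction. It passed for 4 of 16 S-phase genes, 3 with a larger effect at E16.5 and 1 with a smaller effect, and for 0 of 20 G2/M genes by edgeR (2 at an unadjusted p under 0.05, and 2 by DESeq2). Over all 17550 genes 9.97% passed upwards and 12.4% downwards, the background for these counts. The difference was 0.39 ± 0.08 for Mcm3, 0.27 ± 0.08 for E2f1, 0.21 ± 0.07 for Mcm6 and -0.42 ± 0.14 for Ccne2 (edgeR adjusted p = 0.0039, 0.031, 0.040 and 0.049). With the replicate number as a block, 34.5% of all genes passed in either direction. The S-phase count was then 6, with Mcm2 and Mcm7 added upwards, and 4 G2/M genes passed: Foxm1, Mki67 and Birc5 upwards and Cdk1 downwards.

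These 4 S-phase genes show the pattern in their libraries. Mcm6 stood at 280, 276 and 269 CPM in E14.5 controls and at 280, 289 and 285 CPM in mutants, and at 158, 155 and 164 CPM against 190, 190 and 191 CPM at E16.5. Mcm3 stood at 197, 191 and 189 CPM against 191, 181 and 185 CPM at E14.5, where the groups overlapped. Ccne2 stood at 12.5, 11.5 and 11.6 CPM in E16.5 controls and at 11.9, 12.02 and 14.6 CPM in mutants, which overlap, while its E14.5 groups do not. The Ccne2 call was lost in 16 of 21 alternative fits, 10 of which left out 1 library, whereas that of Mcm3 was lost in 0 of 21. Without E16.5 mutant libraries 1 and 3 Mcm3 alone of the 4 genes passed.

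**Figure D4:**
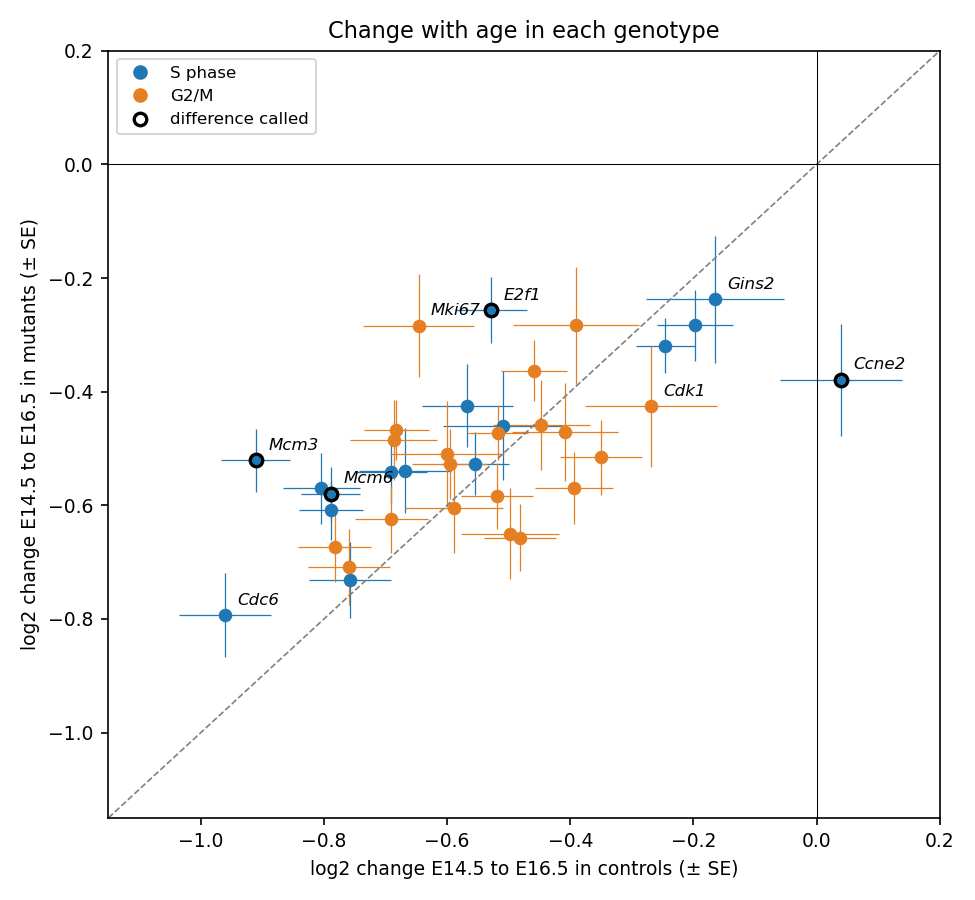
Log2 change from E14.5 to E16.5 of the 36 genes in controls (horizontal) and in mutants (vertical), with bars of 1 SE; the dashed line marks equal changes and black rings the 4 genes whose genotype effects differed between the ages. Points above the line fell less in mutants: 12 of 16 S-phase and 11 of 20 G2/M genes.

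Beyond the 36 genes, 12 further lists of cell cycle genes, with 209 genes tested, were counted in the same fits. At E14.5 21 of 209 rose and 3 fell, against 2.95% and 4.57% of all genes. At E16.5 57 rose and 11 fell, against 12.2% and 15.7%, and the medians at the 2 ages were 0.12 and 0.15 on the log2 scale. The smaller lists are to be read against the same shares. In the list of origin licensing and firing 6 of 18 rose at E16.5 and none fell, led by Mcm10, a replication initiation factor, which went from 18.3 ± 0.04 to 26.0 ± 0.42 CPM (SD, n = 3 each; 0.53 ± 0.07, edgeR adjusted p = 0.00072). Among polymerases and fork genes 10 of 25 rose, led by Pold1, the catalytic subunit of polymerase delta (0.45 ± 0.06), and 1 fell, the nuclease Dna2 (-0.44 ± 0.08). Among the other nucleotide genes 7 of 15 rose, led by Dctd, dCMP deaminase (0.67 ± 0.09) and the CTP synthase gene Ctps (0.40 ± 0.06).

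Of the mitotic lists at E16.5, centromere and kinetochore genes rose in 10 of 27 and fell in none, led by Cenpm (0.47 ± 0.08) and Hjurp (0.43 ± 0.13). Of 17 condensin and cohesin genes tested 3 rose, with Ncapd2 (0.45 ± 0.07) and Ncapg (0.34 ± 0.08) first. In the list of mitotic kinesins, spindle and cytokinesis 4 of 30 rose and 4 fell, shares close to those of all genes. The falls included Nek2, a centrosomal kinase, which went from 120 ± 4.88 to 54.9 ± 2.88 CPM (SD, n = 3 each; -1.10 ± 0.06, edgeR adjusted p = 1.2e-05), and Plk4, the kinase of centriole duplication (-0.54 ± 0.07). In spindle checkpoint and anaphase-promoting complex genes 2 of 18 rose, Fbxo5 and Ttk, again near the share of all genes. Of 11 genes of mitotic entry 3 rose, led by Ccnf and Cks1b.

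Upstream of both phases genes changed both ways. The shares of all genes that rose and fell were 2.95% and 4.57% at E14.5, and 12.2% and 15.7% at E16.5. Of 13 G1 cyclins, CDKs and CDK inhibitors, 2 rose and 2 fell at E14.5, and 3 rose and 1 fell at E16.5. Cdk4, which drives G1 with D-type cyclins, went from 256 ± 71.7 to 591 ± 127 CPM at E14.5 and from 387 ± 30.9 to 1572 ± 262 CPM at E16.5 (SD, n = 3 each; log2 changes of 1.21 and 2.04). Cdk6 rose by 2.97 and 1.34 on the log2 scale. The inhibitors Cdkn1c (E14.5, -0.56 ± 0.09) and Cdkn1a (E16.5, -0.64 ± 0.11) fell. In the list of E2F, RB and pocket proteins 2 of 12 rose and 2 fell at E16.5, near the shares of all genes. The falls included Rb1, the retinoblastoma protein that restrains E2F (-0.55 ± 0.11). At E14.5 that list had no call, and of the DREAM and MuvB list 1 of 6 rose, the histone chaperone Rbbp4 (0.26 ± 0.06).

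Outside the G1 list the calls at E14.5 were rises, apart from that of Cad. Replication stress and repair genes rose in 5 of 17, led by Fanci (0.35 ± 0.08) and Rad51ap1 (0.33 ± 0.07). At E16.5 this list went both ways, with 7 rises and 3 falls, and 5 of its genes passed the interaction test downwards. At E14.5 fork genes rose in 3 of 25, with the helicase gene Hells (0.38 ± 0.06) and the clamp loader subunit Rfc3 (0.37 ± 0.06) first. Condensin and cohesin genes rose in 3 of 17, with Ncapg first (0.41 ± 0.06), and kinesin and spindle genes in 3 of 30, with Kif18a first (0.35 ± 0.07). Centromere and kinetochore genes rose in 3 of 27, among them Dsn1 (0.31 ± 0.07). Of the other nucleotide genes 1 of 15 changed: Cad, an enzyme of pyrimidine synthesis, fell (-0.35 ± 0.07). Mad2l1, a spindle checkpoint protein, was the 1 of 18 in its list to rise.

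Markers of several cell types moved with the genotype beside the cell cycle genes. Osteoblast markers fell in 11 of 11 genes at E14.5, from summed levels of 7999 to 10257 CPM in controls to 3134 to 3856 CPM in mutants, and in 9 of 11 at E16.5, from 2789 to 3461 CPM to 716 to 971 CPM. Cartilage markers rose in 5 of 9 at E14.5 (317 to 393 CPM against 512 to 547 CPM) and in 7 of 9 at E16.5 (210 to 226 CPM against 705 to 855 CPM). Endothelial markers fell in 6 of 10 at E14.5 (652 to 691 CPM against 544 to 565 CPM) and rose in 9 of 10 at E16.5 (285 to 304 CPM against 401 to 510 CPM). Palate mesenchyme markers rose in 4 of 10 at E14.5 (1009 to 1153 CPM against 1894 to 2274 CPM), and in 6 of 10 with 1 fall at E16.5 (892 to 1060 CPM against 1696 to 2659 CPM). Most of that difference was Prrx1, a homeobox gene of the mesenchyme: the other 9 markers summed to 806 to 889 CPM in controls against 820 to 945 CPM at E14.5, and to 484 to 559 CPM against 594 to 698 CPM at E16.5. Cornified epithelium markers fell in 6 of 8 at E16.5 (5625 to 5926 CPM against 3312 to 4061 CPM), ciliated epithelium markers rose in 1 of 10 and fell in 3 (1169 to 1321 CPM against 738 to 1320 CPM), and basal epithelium markers rose in 2 of 10 at E14.5 (1074 to 1820 CPM against 1877 to 1979 CPM) and fell in 1 of 10 at E16.5. Retina markers rose in 7 of 10 and neuron markers in 8 of 10 at E16.5, with 3 retina markers at 0 in mutant library 2. Their part in the cell cycle changes was not tested.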

How the data were processed

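RNA of 12 samples, 3 per group, was measured by RNA-seq. Per the submitters' processing notes, reads were aligned and counted with HISAT2 and featureCounts on the mouse build mm9 and tested with DESeq2; versions, annotation and strand setting are not given in the sources used here. The authors deposited raw counts per gene for each sample, and tables of their own comparisons whose log2 fold changes and adjusted p-values the authors computed; 24 further columns of per-sample values in these tables were not used. The 36 genes, the other lists and the tests were chosen with earlier results of these data known.

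Counts were tested with edgeR 4.0.16 (R 4.3.3; TMM, filterByExpr, quasi-likelihood F test, Benjamini-Hochberg adjustment over all genes tested, threshold 0.05), within an age for the genotype effect and over all 12 samples for the interaction and the change with age. SE is the log2 fold change divided by the square root of F. CPM used TMM factors over the 12 samples. DESeq2 1.42.0, limma 3.58.1 (voom), other scalings, filters, a replicate block and left-out libraries were the alternatives. No 2 of the 66 pairs of libraries held identical counts. The labels give no pairing, and the main fits hold no block. Same-numbered control and mutant samples of E16.5 passed a limit of r = 0.1 across genes (r = 0.10, 0.16 and 0.22). Those of E14.5 did not all pass it (0.02, 0.04 and 0.16). The samples numbered 3 also deviated together between the ages (0.16 in controls and 0.16 in mutants). Over the 13463 genes with a mean log2 CPM above 1 their r was larger. Between control and mutant numbered 3 it was 0.56 at E14.5 and 0.69 at E16.5. Between the ages it was 0.56 in controls and 0.61 in mutants. For control and mutant numbered 1 and 2 it was 0.08 and 0.13 at E14.5, and 0.20 and 0.24 at E16.5. These r therefore cannot tell pairs from a trait of the samples numbered 3. Scripts were tested on simulated data.

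Library values are given, per genotype comparison and phase, for up to 4 called genes with the largest change and the 1 with the smallest, for genes called in the interaction, and for the 3 largest and 1 smallest changes with age. Of each other list up to 2 called genes with the largest change were named, plus a few of the same order chosen after their values were seen. Shared exons come from GENCODE vM21 on GRCm38, matched by symbol. Ccnb1, Pcna, Mcm7, Rrm2, Cdc6 and Tyms have near-identical pseudogene copies, so their counts are less certain. Shorter stretches of the Tyms transcript also match those of other genes. Markers of skeletal muscle, erythroid cells, Schwann cells and macrophages were also summed; at E14.5 2 of 10 macrophage and 1 of 8 Schwann cell markers fell, at E16.5 2 of 9 muscle and 1 of 8 Schwann cell markers fell, and no other was called.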

Additional observations from a re-analysis of the deposited data

Results flagged for a closer look

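In 4 of 16 S-phase genes the genotype effect differed between E14.5 and E16.5 by the interaction test (edgeR, adjusted over 17550 genes). That count is near the share of all genes tested, of which 22.3% passed. The difference, as the E16.5 minus the E14.5 log2 effect, was 0.39 for Mcm3, 0.21 for Mcm6, 0.27 for E2f1 and -0.42 for Ccne2. Mcm3, Mcm6 and E2f1 had effects of -0.05, 0.05 and -0.01 at E14.5 and of 0.36, 0.28 and 0.28 at E16.5, whereas Ccne2 had 0.53 and 0.14. The call was lost in 0 of 21 alternatives for Mcm3, 4 for Mcm6, 6 for E2f1 and 16 for Ccne2, in each case with the direction kept. For Ccne2 the adjusted p ranged from 0.018 with a replicate block to 0.14 without E14.5 mutant library 3 (edgeR).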

How the results depend on the processing

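Of the gene results called without the block, none reversed in these alternatives: of 1436 values in alternative fits, 1314 stayed on their side of the threshold and 122 lost a call. Most of these values belong to the changes with age, where few calls were lost. The genotype calls were less firm than that total. Rrm1 at E14.5 lost its call in 9 of 16 alternatives and Bub1b at E16.5 in 8 of 17, whereas Rrm2 lost it in 0 of 16 and 0 of 17. Of 1552 values of gene results not called, 63, in 16 genes, had the opposite sign, none of them called; Aurka at E16.5, for example, had 0.004 and, with the block, -0.003. The counts of calls were less firm than the medians. Leaving out 1 library at a time gave, at E14.5, 2 to 4 S-phase and 0 to 5 G2/M calls, and at E16.5 2 to 10 and 0 to 4; for the interaction 1 to 4 and 0 to 2. Calls over all genes in these fits were 3.12 to 8.36% at E14.5, 16 to 31.4% at E16.5 and 16.5 to 26.5% for the interaction. With a replicate block the calls at E14.5, where the pairing did not hold, were 10 S-phase and 13 G2/M (12 higher and 1, Mki67, lower) while calls over all genes went from 7.52 to 18.9%, and with a term for the samples numbered 3, chosen after seeing the data, 10 and 11, with 17.6% of all genes. At E16.5 the G2/M calls were 11 with the block, 11 with that term, and 8 with upper-quartile factors, with DESeq2 or with all 12 samples in the fit. The block ended none of the calls made without it. Replicates 1 and 2 alone gave 6 S-phase and 2 G2/M calls at E16.5; without E16.5 mutant libraries 1 and 3 these were 4 and 0. For the interaction, replicates 1 and 2 alone gave 2 and 1 calls and leaving out those mutant libraries 1 S-phase call; the G2/M count was 4 with the replicate block and 2 with upper-quartile factors, DESeq2, no filter or a filter of 5 CPM in 3 samples. The cause of these shifts was not tested.

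Medians moved beyond the spread between libraries in few cases. The S-phase median at E14.5 was 0.13 with replicates 1 and 2. The interaction medians were 0.18 (S phase) and 0.094 (G2/M) with upper-quartile factors, 0.17 (S phase) without a filter, 0.18 and 0.093 with replicates 1 and 2, and 0.18 (S phase) without E16.5 mutant libraries 1 and 3; leaving out 1 library gave 0.12 to 0.18 and 0.019 to 0.10. The change with age in controls was -0.69 and -0.59 with upper-quartile factors, and in mutants -0.47 and -0.46 with the 5 CPM filter, -0.47 (G2/M) with replicates 1 and 2, and -0.46 and -0.47 without those mutant libraries; leaving out 1 library gave -0.67 to -0.59 and -0.55 to -0.50 in controls and -0.51 to -0.46 and -0.51 to -0.47 in mutants.

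The genotype difference of the phase levels was larger with the median level over genes (S phase 0.33 and 0.34 at E14.5 and E16.5, G2/M 0.15 at E14.5, S minus G2/M 0.18 and 0.22) and with total counts only (S phase 0.20 and 0.30, G2/M 0.14 and 0.18). The median level rests on the few genes of middle level, and the median change per gene is given above. Leaving out 1 library gave 0.16 to 0.18 and 0.23 to 0.27 in S phase, 0.10 to 0.13 and 0.11 to 0.15 in G2/M, and 0.05 to 0.07 and 0.10 to 0.13 for S minus G2/M. The lowest level of these genes in any library was 10.96 CPM (Ccne2), and the part of depth in the calls was not tested.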

Other observations

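The samples numbered 3 stood apart in the same way in all 4 groups. In 9 of the 36 genes the sample numbered 3 was the highest of its group in every group, and in 7 it was the lowest; over all 17550 genes tested these shares were 14.4% and 12.8%. The 9 genes with the highest value there were Cenpf (11130 bases for the longest coding transcript in GENCODE vM21), Mki67 (10061), Cenpe (7910), Top2a (5221) and Kif11 (4819), and also Mcm2 (3371), Ccna2 (2965), Rrm2 (2193) and Cdt1 (2189), which lie within the length range of the lowest set. Mki67, for example, stood at 514, 485, 345 and 387 CPM in these samples (E14.5 control and mutant, E16.5 control and mutant), against 395 to 477 CPM in the other E14.5 samples and 288 to 349 CPM in the other E16.5 samples. The genes with the lowest value there were Gins2, Tyms, Ccne1, Ccnb1, Cdk1, Birc5 and Ube2c, with transcripts of 2000 to 4375 bases. Cdk1 stood at 141, 164, 113 and 117 CPM in the samples numbered 3, against 160 to 196 CPM in the other E14.5 samples and 135 to 147 CPM in the other E16.5 samples. Over all genes the median transcript length was 5303 bases where these samples were highest and 1773 bases where they were lowest, against 3055 bases for all genes with a length. The part of transcript length in the calls was not tested.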
